A study of Mus musculus with 8 samples.

Results

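Cytosolic ribosomal protein genes were followed in whole mouse lung after exposure to ozone or filtered air. They were taken as every probe set with a single annotated symbol made of Rpl or Rps and a number, together with Rplp0 and Rpsa. The kinases that phosphorylate Rps6, pseudogenes and mitochondrial ribosomal proteins were left out. This gave 47 of 12422 probe sets other than controls, for 33 genes: 16 genes of the large ribosomal subunit with 21 probe sets and 17 genes of the small subunit with 26. Each array reported 1 intensity per probe set on a linear scale, and 45 of the 47 probe sets, for 32 genes, were bright enough to be tested. The rule used names only and no measured value, but it was chosen with earlier results of these data known.

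RNA came from lungs of C3H/HeOuJ mice (HeOuJ below) in ozone, of HeOuJ mice in filtered air, of C3H/HeJ mice (HeJ below) in ozone and of HeJ mice in filtered air. Both are inbred substrains of C3H; HeJ mice respond poorly to endotoxin and HeOuJ mice respond normally. Each of the 4 groups was read on 2 arrays, named 1a and 1b, 8 arrays in all. An exposure of 72 h is stated for both HeOuJ groups, none is stated for HeJ, and no ozone concentration is given. Whether arrays 1a and 1b were separate animals is not stated, so the p-values below reflect array-to-array spread that may be technical. In whole lung, fewer cells of a type and less RNA per cell cannot be told apart. The comparisons ask how ozone altered lung transcripts in each substrain and whether the substrains differed.

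A ribosome is built from a small subunit, which reads the messenger RNA, and a large subunit, which forms the peptide bonds. Each is a scaffold of ribosomal RNA with many proteins, nearly all present in a single copy, and their genes are usually expressed together at a high level in every cell. Many of these messenger RNAs begin with a C followed by a run of C and T bases (U in the RNA), the 5′ terminal oligopyrimidine or TOP motif. Through that motif their translation, more than their amount, follows the mTOR growth pathway. Array values report the amount of messenger RNA and not its translation.

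Start-site sequences are shown for the members that carry the results below and for those whose annotated start shows the TOP motif. Windows were found in the RefSeq promoter table (build GRCm38.p6) for 26 of the 33 genes, some with several annotated starts, 35 windows in all. In 5 of these windows, on the strand of the gene, the start base was a C followed by at least 4 bases that were each C or T, which is 14.3% of the member windows and 2.51% of all 32851 windows in the table. A run of at least 8 bases, each C or T, came within 5 bases of the start in 10 of the 35 windows (28.6%), against 9.72% of all windows; the 5 windows above are among these 10. The match is a description of letters at an annotated start. Each line gives 20 bases before and 20 from the start on, 5′ to 3′ along the gene, with a run of at least 8 C or T bases in capitals. The first 5 show the TOP motif; the other 4 are bright members whose values are given first below, and hold no such run.
Rps10: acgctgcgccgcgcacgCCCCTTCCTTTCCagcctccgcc
Rps18: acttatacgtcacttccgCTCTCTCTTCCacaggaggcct
Rps27: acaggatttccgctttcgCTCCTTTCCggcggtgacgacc
Rpl35a: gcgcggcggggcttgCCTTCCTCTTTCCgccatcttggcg
Rpl38: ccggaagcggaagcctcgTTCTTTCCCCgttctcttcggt
Rplp0: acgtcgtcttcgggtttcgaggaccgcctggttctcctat
Rps7: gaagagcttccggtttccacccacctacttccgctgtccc
Rpsa: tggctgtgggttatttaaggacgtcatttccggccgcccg
Rps4x: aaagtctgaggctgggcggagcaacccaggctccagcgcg
The windows lie at chr17:27635225-27635264 (Rps10, minus strand), chr17:33955646-33955685 (Rps18, minus), chr3:90213629-90213668 (Rps27, minus), chr16:33056462-33056501 (Rpl35a, plus), chr11:114668560-114668599 (Rpl38, plus), chr5:115559447-115559486 (Rplp0, plus), chr12:28635934-28635973 (Rps7, minus), chr9:120127746-120127785 (Rpsa, plus) and chrX:102189372-102189411 (Rps4x, minus). For Rplp0, Rps7, Rpsa and Rps4x the absence of a run says only that these letters are not at the start used here.

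Over the whole series, 10953 probe sets passed a filter that asked for an intensity above 69.6, the 20th percentile of all values, on at least 2 arrays; lower values were raised to this floor before log2 was taken. Array medians lay between 351 and 386. Between 2 groups a log2 fold change had a standard error of 0.30 in the median probe set, so precision is limited by the number of arrays. Markers of alveolar type 2 and type 1 cells, club cells and endothelium were above the floor on every array. The ratio of 5′ to 3′ intensity of the actin control probe sets is a sign of RNA length. It was 0.766 and 0.756 on the HeOuJ ozone arrays and 0.432 to 0.603 on the other 6. The same ratio of the Gapdh controls was 1.34 and 1.18, against 0.775 to 1.06 on the other 6. That of the transferrin receptor controls was 0.490 and 0.289, against 0.184 to 0.518, and so did not set the HeOuJ ozone arrays apart.

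The members were divided into bright and dim probe sets. The split was made after the values were seen, at the median mean level of the probe sets tested, an intensity of 452. It put 25 probe sets of 22 genes above and 20 probe sets of 16 genes below, with 6 genes on both sides. The bright probe sets were measured well: the SD of log2 intensity within a group, pooled over the 4 groups, was 0.20 in the median member, 0.09 for Rpl10a at the low end and 0.40 for Rpl41 at the high end. The dim ones often lay near the floor; Rps14, for example, had intensities between 35.0 and 138 over the 8 arrays, and Rpl39 between 54.4 and 135. Of 10 genes with several probe sets tested, 4 had the same sign on all of them for the ozone effect in HeOuJ. The 2 members too dim to test were Rps27l, a relative of Rps27 that p53 induces, and 1 of the 5 probe sets of Rps4x. Rps27l read 58.3 and 114 on the HeOuJ ozone arrays and between 14.3 and 28.4 on the other 6, which leaves 1 array above the floor.

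In HeOuJ lungs the bright members read higher in ozone than in air for 20 of 25 probe sets, by a small amount, and no member passed the test. The median log2 fold change was 0.20 over the bright members and 0.14 over all 45 members tested (29 higher, 16 lower), against 0.02 over all probe sets tested. Both depended on single arrays: without array 1b of HeOuJ ozone the medians were 0.08 (14 of 25 bright members higher) and 0.00, without array 1b of HeOuJ air 0.08 (16 of 25) and -0.03. Without array 1a of HeOuJ ozone or of HeOuJ air the bright median was 0.34 or 0.32. In limma with Benjamini-Hochberg adjustment over all probe sets, 0 of 45 members had an adjusted p under 0.05, against 0.456% of all probe sets; the smallest member value was 0.121. An unadjusted p under 0.05 was reached by 6 of 45 members (13.3%), 4 of them higher and 2 lower, against 15.5% of all probe sets. The share of members singled out was thus near that of the array as a whole. For 23 of the 25 bright members the 95% interval of the change lay within 2-fold in both directions, and for 5 of them within 1.5-fold.

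Among the bright probe sets Rps7, Rplp0, Rpsa and Rpl10a had the smallest p-values. Rplp0, the base of the ribosomal stalk that recruits elongation factors, read 26942 and 27000.5 on the HeOuJ ozone arrays, 19787 and 17026 on the HeOuJ air arrays, 19442 and 19431 on the HeJ ozone arrays and 19880 and 17606 on the HeJ air arrays. Both HeOuJ ozone arrays lay above the other 6. Its log2 fold change in HeOuJ was 0.56 (SE 0.17, limma adjusted p = 0.184), with a 95% interval of 0.17 to 0.94.

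Rps7, a protein of the small subunit that takes part in its assembly and also binds the p53 regulator Mdm2, had the largest log2 fold change of any bright member in HeOuJ. It read 16821 and 22386 in HeOuJ ozone, 13055 and 9220.3 in HeOuJ air, 13550 and 12095 in HeJ ozone and 14194 and 11689.8 in HeJ air. The HeOuJ ozone arrays were again the highest, and the air arrays of that substrain differed from each other by more than the HeJ groups did. The log2 fold change was 0.82 (SE 0.22, limma adjusted p = 0.145), a ratio of 1.77 with a 95% interval of 0.31 to 1.33 on the log2 scale.

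Rpsa, a small subunit protein also known as the laminin receptor, read 5381 and 5671 in HeOuJ ozone, 4447 and 4009 in HeOuJ air, 4603 and 4296 in HeJ ozone and 4987 and 4392 in HeJ air. Its ozone arrays in HeOuJ did not overlap any other array, and the log2 fold change was 0.39 (SE 0.13, limma adjusted p = 0.212). Rpl10a, a large subunit protein near the exit site for transfer RNA, is read by 2 bright probe sets. The first gave 6050 and 7240.5 in HeOuJ ozone, 5298 and 5296 in HeOuJ air, 5136 and 5197 in HeJ ozone and 5594 and 5491 in HeJ air, with a log2 fold change of 0.32 in HeOuJ (SE 0.13, limma adjusted p = 0.284). The second, whose probes match several transcripts of the family by the array's naming, gave 5296 and 3867 in HeOuJ ozone and 4290 and 3608 in HeOuJ air, so its groups overlapped, with a log2 fold change of 0.20.

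Rps4x, the X-linked copy of a small subunit protein, went the other way. Its bright probe set read 12603 and 13578 in HeOuJ ozone, 21760.5 and 15430.2 in HeOuJ air, 21321 and 17410.1 in HeJ ozone and 22336 and 18490.4 in HeJ air. Both HeOuJ ozone arrays lay below the other 6, and the log2 fold change was -0.49 (SE 0.22, limma adjusted p = 0.325). Its 3 dim probe sets that were tested gave log2 fold changes of -0.69, -0.19 and 0.27, with overlapping arrays in each. Rpl7, a large subunit protein, was the other bright member with both HeOuJ ozone arrays below the other 6. It read 13670 and 15448 in HeOuJ ozone, against 19717 and 15935 in HeOuJ air, a log2 fold change of -0.29 (SE 0.18). By the array's naming that probe set can match more than 1 transcript. The dim probe set of Rpl7 had a log2 fold change of the opposite sign, 0.17 (SE 0.33). In all, 7 of 45 members (15.6%) had both HeOuJ ozone arrays above the other 6 and 2 (4.44%) had both below, against 11.9% and 9.6% of all probe sets tested. The other 5 members above, besides Rplp0 and Rps7, were Rpsa, Rpl10a, Rps3, Rpl22 and 1 of the probe sets of Rps28. Rps3 was above only narrowly, with 15920 on 1 HeOuJ ozone array against 15899 on 1 HeOuJ air array. The probes of that Rps28 probe set match several transcripts of the family by the array's naming.

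**Figure D1:**
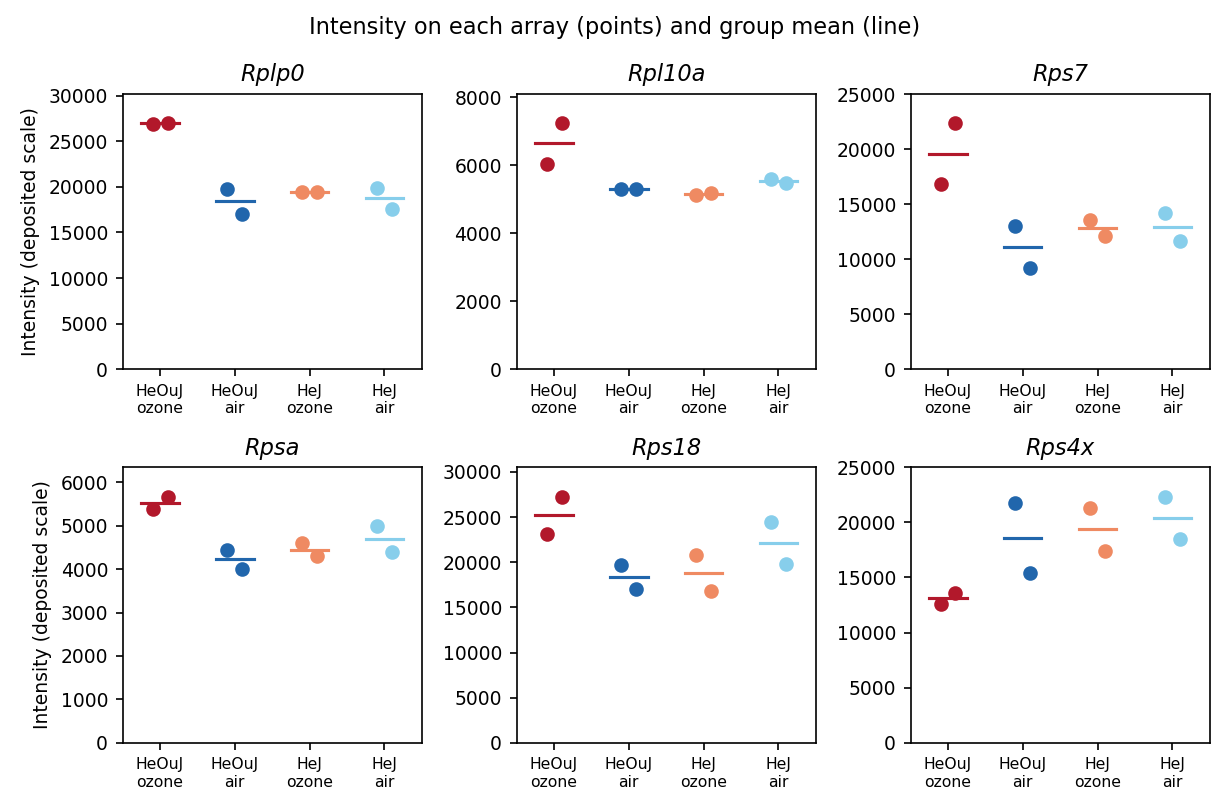
Intensity of 6 bright members on each array (points, 1a left and 1b right) with the group mean (line), on a linear axis from 0. In HeOuJ ozone Rplp0, Rpl10a, Rps7 and Rpsa lie above the other 6 arrays and Rps4x lies below them, while Rps18 overlaps HeJ air.

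The remaining bright members of the small subunit read higher in HeOuJ ozone for the most part. Rps3, a protein at the messenger RNA entry that also acts in DNA repair, read 15920 and 20764 in HeOuJ ozone and 15899 and 11536 in HeOuJ air, a log2 fold change of 0.42 (SE 0.21). Rps18, of the small subunit head, read 23081 and 27279 in HeOuJ ozone and 19745 and 16984 in HeOuJ air, a log2 fold change of 0.45 (SE 0.20). Both bright probe sets of Rps28 were higher, with log2 fold changes of 0.43 and 0.39, and Rps10 had 0.29. Rps24 and Rps4l were close to 0, at 0.07 and 0.02. Rps19, the gene most often mutated in Diamond-Blackfan anaemia, and Rps27 had -0.14 and -0.17. Over the 12 bright small subunit probe sets 9 were higher, with a median of 0.34.

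The bright members of the large subunit had 11 of 13 probe sets higher in HeOuJ ozone, and their median was 0.16 on the log2 scale. Rpl22, an RNA-binding protein that early T cells need and that ribosomes can do without, had 2 probe sets: 1 read 1107 and 985 in HeOuJ ozone and 730 and 824 in HeOuJ air (log2 fold change 0.43, SE 0.19), and the other 629 and 358 in HeOuJ ozone and 340 and 457 in HeOuJ air (0.27, SE 0.33). Rpl13a, which also takes part in silencing inflammatory messenger RNAs after interferon, read 853 and 1020 in HeOuJ ozone and 1026 and 1075 in HeOuJ air, a log2 fold change of -0.17 (SE 0.17). Rpl41, the smallest ribosomal protein, read 48041 and 69079 in HeOuJ ozone and 65789 and 45174 in HeOuJ air. Its arrays spread as widely within each group as between them, and its log2 fold change was 0.08 (SE 0.35). By the array's naming its probes match several transcripts of the family. The bright probe sets of Rpl6, Rpl19, Rpl8, Rpl7a and Rpl37a had log2 fold changes between 0.01 (Rpl37a) and 0.23 (Rpl6); Rpl6 read 11139 and 17546 in HeOuJ ozone and 13688 and 10362 in HeOuJ air, so the groups overlapped. The difference between the subunits was not tested.

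Among the dim members of HeOuJ lungs, Rpl35a had the smallest p of all members. Rpl35a, a large subunit protein that is also mutated in Diamond-Blackfan anaemia, read 94.6 and 55.0 in HeOuJ ozone, 267 and 261 in HeOuJ air, 61.6 and 89.1 in HeJ ozone and 75.6 and 163 in HeJ air. The HeOuJ air arrays were the high ones and 1 HeOuJ ozone array was under the floor, so the log2 fold change of -1.70 (SE 0.42, limma adjusted p = 0.121) is against a floored value. Rps20, a small subunit protein, read 57.6 and 46.8 in HeOuJ ozone, both under the floor, and 116 and 164 in HeOuJ air, a log2 fold change of -0.99 (SE 0.35, limma adjusted p = 0.234). Over the 20 dim members 9 were higher and 11 lower, with a median of -0.18. Besides Rpl35a and Rps20 they ranged from -0.87 for Rpl32 to 0.61 for 1 of the 2 probe sets of Rpl38, with adjusted p-values of 0.418 and above in limma; the other Rpl38 probe set had -0.56. Rps29, Rps13 and Rpl39 lay in this range, at 0.16 and 0.55 (2 probe sets), -0.24 and 0.37. Dim and bright probe sets, with some genes on both sides, had medians of opposite sign in the same samples. Many values of the dim ones lay near or under the floor. The 5 genes with the TOP motif at the start shown above had log2 fold changes of both signs in HeOuJ, none of which passed the test: 0.45 for Rps18, 0.29 for Rps10, -0.17 for Rps27, -1.70 for Rpl35a and the values of opposite sign for the 2 probe sets of Rpl38. The probe sets of Rpl35a and Rpl38 are dim ones near the floor. For Rpl38, the 0.61 rests on 1 HeOuJ ozone array at 188, the other at 9.57. Its other probe set read 67.7 and 55.5 in HeOuJ ozone, both under the floor.

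**Figure D2:**
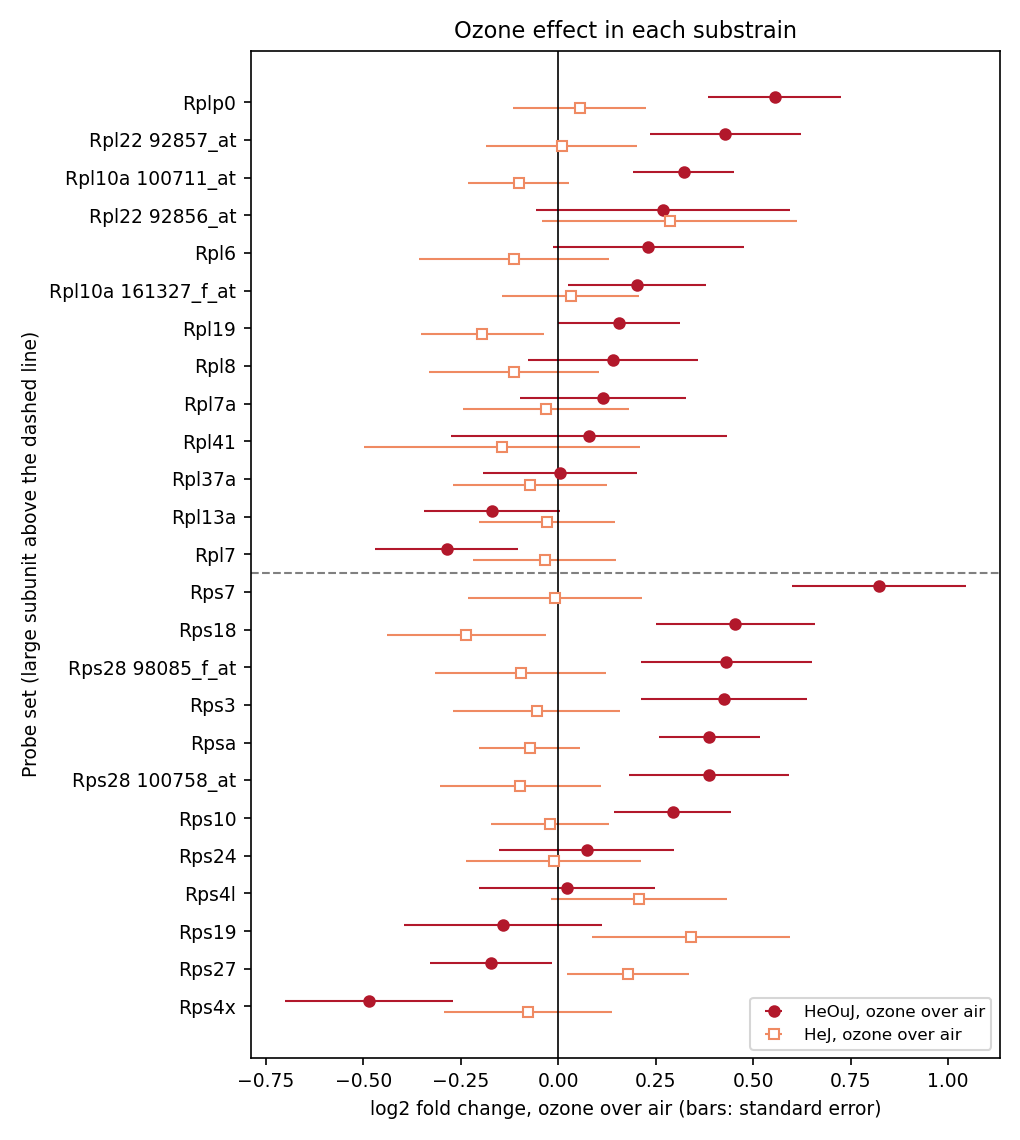
Log2 fold change of ozone over air for the 25 bright members (bars, standard error), HeOuJ as filled circles above HeJ as open squares in each row. In HeOuJ 20 of 25 lie above 0, with a median of 0.20; in HeJ 7 of 25 do, with a median of -0.04.

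In HeJ lungs the bright members differed little between ozone and air. Their median log2 fold change was -0.04, with 7 of 25 probe sets higher, and over all 45 members it was -0.03, against 0.01 over all probe sets tested. None of the 45 members had an adjusted p under 0.05 in limma and none an unadjusted p under 0.05, against 0% and 4.35% of all probe sets. The 95% interval lay within 2-fold for 24 of the 25 bright members and within 1.5-fold for 17. Rplp0 had a log2 fold change of 0.06 (SE 0.17), Rps7 of -0.01 (SE 0.22), Rpsa of -0.07 (SE 0.13) and Rps4x of -0.08 (SE 0.22). The member of smallest p was Rpl39l, a relative of Rpl39 expressed mainly in the male germ line, whose dim probe set read 129 and 121 in HeJ ozone and 69.6 and 66.6 in HeJ air (log2 fold change 0.84, SE 0.38, limma adjusted p = 1); both HeJ air values were under the floor, so the fold change is against floored values. Next came the dim probe set of Rpl19 at 1.36 (SE 0.90), while the bright one of the same gene had -0.19 (SE 0.16). Rps19 read 6877 and 11086 in HeJ ozone and 7636 and 6219 in HeJ air, a log2 fold change of 0.34 (SE 0.25) that rests on 1 high array. Rps14 and Rps15, both dim, had -0.43 and -0.50, each with 1 HeJ ozone array under the floor (35.0 for Rps14 and 63.9 for Rps15).

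The ozone effect was set directly against itself in the 2 substrains with an interaction term, and no member passed. The difference of the log2 fold changes, HeOuJ minus HeJ, had a median of 0.25 over the bright members (18 of 25 positive) and 0.11 over all 45, against 0.02 over all probe sets tested. In limma 0 of 45 members and 0% of all probe sets had an adjusted p under 0.05; 5 members (11.1%) and 11.4% of all probe sets had an unadjusted p under 0.05. The 5 members were Rps20 at -1.41 (SE 0.49), Rps7 at 0.83 (SE 0.32), Rpsa at 0.46 (SE 0.18), Rps18 at 0.69 (SE 0.29) and Rpl10a at 0.42 (SE 0.18), with limma adjusted p-values from 0.343 to 0.433. Rplp0 had 0.50 (SE 0.24, limma adjusted p = 0.488). For 13 of the 25 bright members the interval of the difference lay within 2-fold, and for none within 1.5-fold. A larger ozone effect in HeOuJ was therefore neither shown nor bounded closely.

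Averaged over both substrains, the ozone effect had a median of 0.11 over the bright members (19 of 25 higher) and 0.04 over all 45, against 0.02 over all probe sets tested. In limma 0 members had an adjusted p under 0.05, against 0.0183% of all probe sets, and 3 of 45 (6.67%) an unadjusted one, against 9.25%. These were Rpl35a at -1.10 (SE 0.30), Rps7 at 0.41 (SE 0.16) and Rplp0 at 0.31 (SE 0.12). All 25 bright members had an interval within 2-fold, and 21 within 1.5-fold.

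Between the substrains in ozone, HeOuJ over HeJ, the bright members had a median log2 fold change of 0.18 with 16 of 25 higher, and all 45 members one of 0.09, against 0.02 over all probe sets tested. No member passed in limma, against 0.977% of all probe sets, and the smallest member adjusted p was 0.199. An unadjusted p under 0.05 was reached by 6 members (13.3%), against 18% of all probe sets. These were Rplp0 at 0.47 (SE 0.17), Rpl10a at 0.36 (SE 0.13), Rps7 at 0.60 (SE 0.22), Rpsa at 0.31 (SE 0.13), Rps3 at 0.50 (SE 0.21) and, in the lower direction, Rps4x at -0.56 (SE 0.22). This comparison and the ozone effect in HeOuJ share the 2 HeOuJ ozone arrays, so they are not separate results.

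Between the substrains in air, HeOuJ over HeJ, the bright members leaned the other way: 6 of 25 were higher and the median was -0.08, against 0.01 over all probe sets tested and -0.07 over all 45 members. No member passed in limma, against 0.0456% of all probe sets, and 1 (2.22%) had an unadjusted p under 0.05, against 5.71%. It was Rpl35a at 1.25 (SE 0.42, limma adjusted p = 0.775), from the dim probe set described above. Rps27 read 1955 and 1692 in HeOuJ air and 1383 and 1499 in HeJ air, without overlap (log2 fold change 0.34, SE 0.16). Rps19 had 0.46 (SE 0.25), and the dim Rps14 and Rpl32 had -0.65 (SE 0.32) and 1.06 (SE 0.58); the value of Rpl32 rests on 1 HeOuJ air array at 301, the other at 57.7. Both HeOuJ air arrays of Rps14 and both HeJ air arrays of Rpl32 were under the floor.

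Averaged over exposures, HeOuJ over HeJ had a median of 0.07 in the bright members (16 of 25 higher) and 0.06 over all 45, against 0.02 over all probe sets tested. In limma 0 members passed, against 0.155% of all probe sets, and 1 (2.22%) had an unadjusted p under 0.05, against 13%. It was Rps4x at -0.35 (SE 0.15, limma adjusted p = 0.371). Next to it stood Rps4l, an autosomal relative of Rps4x, at -0.36 (SE 0.16) for its bright probe set, which read 708 and 866 in HeOuJ ozone, 921 and 646 in HeOuJ air, 1113 and 1032 in HeJ ozone and 1027 and 838 in HeJ air. By the array's naming that probe set can match more than 1 transcript, so its signal may not be that of Rps4l alone. Every bright member had an interval within 2-fold in this comparison, and 19 of 25 within 1.5-fold.

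The members whose arrays did not overlap between 2 groups were also counted. In HeOuJ, 10 of 45 members (22.2%) had both ozone arrays above both air arrays and 7 (15.6%) both below, against 22.3% and 19.5% of all probe sets. In HeJ the counts were 6 (13.3%) and 2 (4.44%), against 18.4% and 16%. Between the substrains 11 (24.4%) were higher and 7 (15.6%) lower in HeOuJ in ozone, against 24.4% and 21.6%, and 7 (15.6%) higher and 5 (11.1%) lower in air, against 17.1% and 15.5%.

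The bright members moved together from array to array, also between arrays of 1 group. In 3 groups array 1a read higher than 1b for most of them: for 21 of 25 in HeOuJ air, with a median log2 difference of 0.25, for 20 in HeJ ozone, with 0.13, and for 20 in HeJ air, with 0.23. In HeOuJ ozone it was the reverse, with 1a higher for 7 of 25 and a median of -0.21. In 3 of the 4 groups, all but HeJ ozone, this shift within a group was larger than the median ozone effect of 0.20 in HeOuJ. Over all probe sets tested 1a was higher for 47.8% to 53.0%. The summed intensity of the 47 members was 2.65% and 3.08% of the total on the HeOuJ ozone arrays, 2.84% and 2.33% in HeOuJ air, 2.80% and 2.47% in HeJ ozone and 2.93% and 2.51% in HeJ air, so the 4 groups overlapped in this share. The HeOuJ ozone group had the highest mean of the 4 groups for 16 of the 25 bright members, and HeOuJ air the lowest for 14. Among the 20 dim members HeOuJ ozone was the highest for 5, and HeOuJ air was the highest for 7 and the lowest for 4. The same count over all probe sets was not made, so these numbers cannot be called particular to the members.

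**Figure D3:**
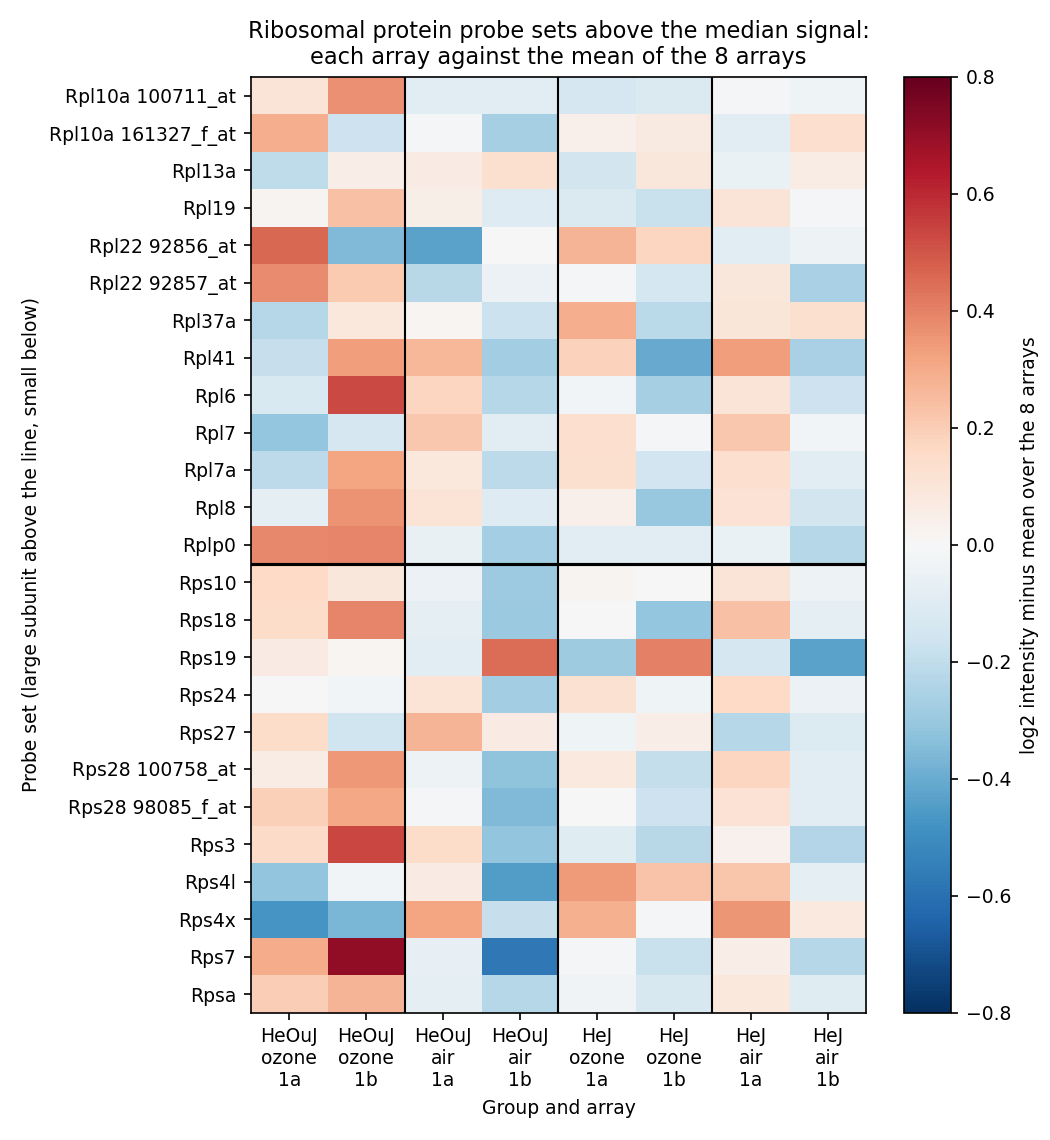
Log2 intensity of each bright member on each array, minus that probe set's mean over the 8 arrays (red higher, blue lower); groups are separated by vertical lines and the subunits by the horizontal line. Array 1b of HeOuJ air is blue for most members and array 1b of HeOuJ ozone red, while Rps4x, Rpl7 and Rps19 run against their neighbours.

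Many ribosomal protein genes could not be read alone because their probe sets also match other symbols, as with Rpl3, Rps6 and Rplp1. The 36 such probe sets that were tested, not members and with no gene named for a value, had a median log2 fold change of 0.28 in HeOuJ (29 of 36 higher) and -0.04 in HeJ (14 of 36 higher). No such probe set passed in either comparison. Between the substrains their median was 0.24 in ozone (29 of 36 higher) and -0.06 in air. Their array letters shifted as in the members, with 1a higher for 28, 27 and 28 of 36 in HeOuJ air, HeJ ozone and HeJ air and for 15 in HeOuJ ozone. The 3 proteins of the cytosolic ribosome outside the naming rule that were tested, Fau, Rps3a1 and Rpl7l1, had a median of 0.13 in HeOuJ.

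The rest of the translation machinery was described from lists drawn up with earlier results of these data known. Of 48 probe sets for initiation factors, 24 were higher in HeOuJ ozone, with a median of 0.01, and 1 passed. It was Eif4a2, a helicase that unwinds the start of messenger RNAs, which read 3751 and 4033 in HeOuJ ozone, 10503 and 9586 in HeOuJ air, 8210.1 and 8131 in HeJ ozone and 7163 and 6231 in HeJ air. It fell in HeOuJ ozone, with a log2 fold change of -1.37 (SE 0.13, limma adjusted p = 0.0113), and was also lower in HeOuJ than in HeJ in ozone at -1.07 (SE 0.13, limma adjusted p = 0.0236). Of 10 probe sets for elongation factors, 8 were higher in HeOuJ ozone with a median of 0.34 and none passed. Eef2, the factor that moves the ribosome along, read 9030.4 and 8588 in HeOuJ ozone and 6439 and 6253 in HeOuJ air (log2 fold change 0.47, SE 0.14, limma adjusted p = 0.171).

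Genes of ribosome assembly and RNA polymerase I were higher in HeOuJ ozone for 29 of 43 probe sets, with a median of 0.26, and 1 passed. Nhp2, a core protein of the particles that modify ribosomal RNA, read 1565 and 1417 in HeOuJ ozone, 575 and 686 in HeOuJ air, 851 and 643 in HeJ ozone and 895 and 845 in HeJ air. It rose in HeOuJ ozone with a log2 fold change of 1.25 (SE 0.20, limma adjusted p = 0.0464). The calls of Eif4a2 and Nhp2 in this comparison did not hold without any 1 of the HeOuJ or HeJ ozone arrays, without the intensity trend, with the 2 HeOuJ groups alone or with the actin covariate, settings in which 0 probe sets of the array passed. The mTOR and S6 kinase list had 3 of 13 probe sets higher, with a median of -0.08 and none past the threshold. Mitochondrial ribosomal proteins, which serve the separate ribosomes of mitochondria, were higher for 62 of 75 probe sets with a median of 0.31. None passed. The 2 of smallest p went opposite ways in HeOuJ. Mrpl50 had a log2 fold change of -1.67 (SE 0.34, limma adjusted p = 0.0763) and Mrpl16 one of 0.73 (SE 0.19, limma adjusted p = 0.133). At an unadjusted p under 0.05 in limma stood 11 of 75 higher and 1 of 75 lower, against 7.77% higher and 7.73% lower of all probe sets. Both directions together were near the share of the array, but the directions were uneven here and nearly even over all probe sets. This imbalance was not tested. In HeJ the medians of the initiation, elongation, assembly, mTOR and mitochondrial lists were -0.07, 0.06, -0.01, 0.06 and 0.01. The cytosolic and mitochondrial proteins thus had medians of the same sign in HeOuJ, and the difference between the lists was not tested.

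**Figure D4:**
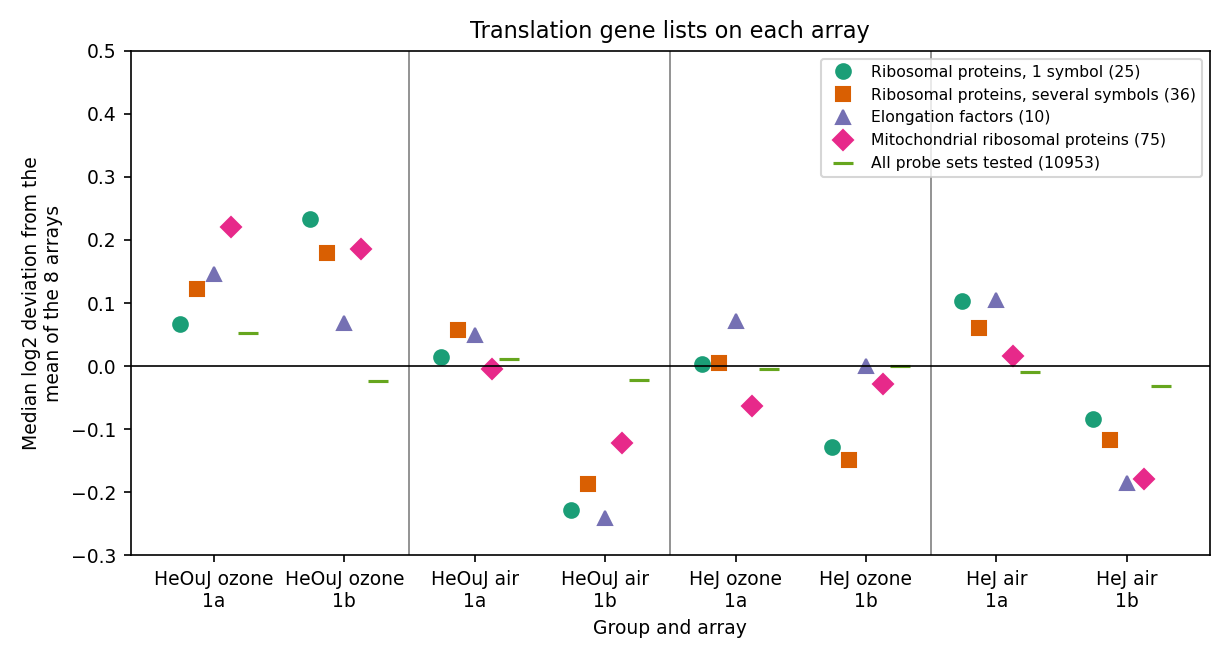
Median log2 deviation from each probe set's mean over the 8 arrays, for the bright members (25), ribosomal protein probe sets with several symbols (36), elongation factors (10), mitochondrial ribosomal proteins (75) and all probe sets tested (10953). The HeOuJ ozone arrays lie at 0.07 and 0.23 for the bright members and the HeOuJ air arrays at 0.01 and -0.23.

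Other measures moved with the HeOuJ ozone arrays. The 5′ to 3′ actin ratio was higher on them, as given above. With that ratio as a covariate the median log2 fold change in HeOuJ was 0.02 over the 45 members and 0.07 over the bright ones (16 of 25 higher). The fit holds a mean for each group, so the slope of the covariate comes only from differences within groups. The widest of these was in HeJ air (0.498 and 0.432), ahead of HeJ ozone (0.505 and 0.530). The slope thus rests mostly on the 2 HeJ air arrays, between which the bright members also shifted by a median of 0.23. The ratio differed more between the HeOuJ groups (0.766 and 0.756 in ozone, 0.598 and 0.603 in air), so these adjusted medians are extrapolated. The part of RNA length was not tested. Markers of dividing cells (Top2a, Mki67, Ccna2 and others, 8 probe sets of which 5 were above the floor on every array) summed to 2828 to 3264 in HeOuJ ozone and 1254 to 1499 in HeOuJ air, with 7 of 8 probe sets higher. In HeJ their sum was 2775 to 2948 in ozone and 1567 to 2046 in air, with 6 of 8 higher. Markers of lung epithelium also summed higher in HeOuJ ozone, with all their probe sets above the floor on every array. The alveolar type 1 markers (Ager, Hopx, Pdpn) summed to 63614 to 65958 in HeOuJ ozone and 52396 to 53104 in HeOuJ air, with 3 of 3 higher, and to 50031 to 58008 in HeJ ozone and 56178 to 64876 in HeJ air, with 1 of 3 higher. The club and airway markers (Scgb1a1, Cyp2f2, Foxj1) summed to 94223 to 96278 in HeOuJ ozone and 59712 to 82474 in HeOuJ air, with 2 of 3 higher, and to 60410 to 80474 in HeJ ozone and 70438 to 91756 in HeJ air, with 1 of 3 higher. The alveolar type 2 markers (Sftpc, Sftpb, Sftpd) summed to 104654 to 114919 in HeOuJ ozone and 61363 to 78497 in HeOuJ air through Sftpc, the only 1 of the 3 that was higher, and to 67247 to 74506 in HeJ ozone and 70036 to 84633 in HeJ air, with 0 of 3 higher. The 2 erythroid probe sets summed to 53944 to 75941 in HeOuJ ozone and 37659 to 43013 in HeOuJ air, with 1 of 2 higher. Neutrophil markers summed to 3695 to 4780 in HeOuJ ozone and 5105 to 5976 in HeOuJ air, with 2 of 5 higher. In HeOuJ the sums of the alveolar macrophage, endothelium, muscle, T cell, and B and plasma cell lists overlapped between ozone and air. The part of cell composition in the members' levels was not tested.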

How the data were processed

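Total RNA of frozen whole lung had been hybridised to Affymetrix mouse arrays, 2 for each of 4 groups. The deposited file holds a linear intensity for each probe set on each array; the 2% trimmed mean was 800.39 to 800.41 throughout, so the authors had scaled the arrays alike. Their software is not given in the sources used. After 66 controls were removed from 12488 probe sets, values were floored at 69.63 (the 20th percentile) and converted to log2, and the 10953 probe sets with at least 2 arrays over the floor were tested. Symbols came from the platform's annotation, which can be old.

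A limma model (version 3.58.1, R 4.3.3) with a mean for each of the 4 groups was fitted to the 8 arrays, with an intensity trend in eBayes, 4 residual and 4.54 prior degrees of freedom and 7 contrasts, and with Benjamini-Hochberg adjustment over all probe sets tested (threshold 0.05). The model was tested on simulated data with independent noise in each probe set. The simulation held no shift shared by many probe sets of an array, so it does not bear on the medians of the members. Lists are given as counts and medians with no set test. The members and lists were chosen with earlier results of these data known.

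Named members are the 5 of smallest p in each comparison, as none passed, and Rplp0, Rpsa, Rpl22, Rps4x, Rpl13a, Rpl39, Rps27l and Rps3. Of the other lists, those past the threshold are named. From lists with none past it, only Eef2, Mrpl50 and Mrpl16 are named, for small p in HeOuJ. No gene of the mTOR list is named for a value. Rpl6, Rpl7, Rpl7a, Rpl8, Rpl37a, Rpl38, Rpl41, Rps10, Rps13, Rps24, Rps28, Rps29 and the 3 ribosome proteins outside the rule were named after their values were seen. Arrays 1a and 1b were not taken as pairs across groups: the correlation of the 1a minus 1b differences exceeded 0.1 for 3 of 6 pairs of groups over all probe sets tested (-0.01 to 0.14); over the bright members it was -0.56 to -0.41 between HeOuJ ozone and the other 3 groups and 0.33 to 0.62 among those 3. The alternatives changed the normalisation, the floor, the filter, the intensity trend or the arrays fitted, added the letter as a block or the actin ratio as a covariate, kept 1 probe set per gene, or left out each array. Python 3.11.15 with pandas 2.3.3 and matplotlib 3.10.9 drew the figures.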

Additional observations from a re-analysis of the deposited data

Results flagged for a closer look

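Rpl10a was the 1 member of 45 (2.22%) whose ozone arrays lay wholly above the air arrays in HeOuJ and wholly below them in HeJ, an arrangement that 3.52% of all probe sets tested showed. Its log2 fold change was 0.32 in HeOuJ (SE 0.13) and -0.10 in HeJ (SE 0.13). The interaction was 0.42 (SE 0.18, unadjusted p = 0.0484 and adjusted p = 0.433 in limma), so the difference did not pass the adjusted threshold. The second probe set of Rpl10a had an interaction of 0.17 (SE 0.25).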

How the results depend on the processing

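No member had an adjusted p under 0.05 in limma in any of the 7 comparisons under the 18 alternative settings (the fit to 2 groups alone was run for the comparisons of 2 groups only); the smallest was 0.0555, between the substrains in ozone without array 1b of HeOuJ ozone. An unadjusted p under 0.05 was reached in the 7 comparisons by 6, 0, 5, 3, 6, 1 and 1 members. The size of the median depended more on the settings. For the ozone effect in HeOuJ it was 0.14, and -0.031 to 0.25 when each array was left out (-0.031 without array 1b of HeOuJ air, 0.00 without array 1b of HeOuJ ozone), 0.048 under quantile normalisation, -0.18 in the dim members and 0.28 in the probe sets with several symbols. For the interaction it was 0.11, with 5.5e-04 to 0.29 when each array was left out (0.29 without array 1a of HeOuJ air) and -0.16 in the dim members. For the substrains in ozone it was 0.24 in the probe sets with several symbols. In air it was -0.21 to 0.081 when each array was left out (both ends without a HeOuJ air array) and 0.20 in the dim members. The actin covariate gave -0.056 for ozone over both substrains, -0.25 for the substrains in air and -0.14 over exposures. The cause of these moves was not tested. The split by brightness and the probe sets with several symbols were added after the data were seen. The bright median for ozone in HeOuJ, repeated under the 18 settings after the data were seen, was 0.20 with all arrays and 0.081 to 0.34 when each was left out, 0.096 under quantile normalisation and 0.075 with the actin covariate. Arrays 1a and 1b as a replicate block changed no call among the members. Each group holds 1 array of each letter, so the block could not change a fold change, and the median of 0.14 for ozone in HeOuJ was fixed by the design.

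Of the 75 values of named members, 27 had the opposite sign under at least 1 setting and 1 was 0.00 under a setting; none of the 75 had passed. With the actin covariate, the first Rpl22 probe set described above had -0.067 in HeOuJ, -0.22 in HeJ, -0.14 over both, and between the substrains -0.44 in ozone and -0.51 over exposures. In HeJ the covariate gave -0.042 for Rps19, -0.058 for Rplp0 and 0.010 for Rpl13a. Between the substrains in ozone it gave -0.014 for Rpsa and 0.092 for Rpl13a, in air -0.44 for Rps19 and -0.25 for Rps3, and over exposures -0.11 for Rplp0, -0.074 for Rps3 and -0.19 for Rpsa. Quantile normalisation gave -0.020 for the first Rpl22 probe set in HeJ, an interaction of 0.025 for the second and 0.085 for Rplp0 between the substrains in air. Cyclic loess gave -0.0059 for the first Rpl22 probe set in HeJ and 0.018 for Rplp0 in air. Median centring gave -0.011 for the first Rpl22 probe set in HeJ, -0.0040 for Rps3 in air and -0.0067 for Rpl13a over exposures.

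Leaving out each array gave, in HeOuJ, -0.14 to 0.68 for the second Rpl22 probe set. In HeJ it gave -0.0030 to 0.69 for Rps19, -0.22 to 0.069 for Rps4x, -0.19 to 0.078 for Rps3, -0.033 to 0.14 for Rplp0, -0.15 to 0.089 for Rpl13a, -0.17 to 0.19 for the first Rpl22 probe set and -0.17 to 0.018 for Rpsa. The interaction of the second Rpl22 probe set ran from -0.42 to 0.39. Between the substrains in ozone the ranges were -0.18 to 0.082 for Rpl13a and -0.57 to 0.24 for the second Rpl22 probe set. In air they were 0.00 to 2.11 for Rpl32, -0.40 to 0.099 for Rps4x, -0.21 to 0.25 for Rps3, -0.14 to 0.081 for Rplp0, -0.36 to 0.062 for the second Rpl22 probe set and -0.23 to 0.13 for the first. Over exposures they were -0.041 to 0.088 for Rpl13a and -0.36 to 0.044 for the second Rpl22 probe set.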

Other observations

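A probe set of a ribosomal protein with several symbols swung widely within and between groups. It read 196 and 945 in HeOuJ ozone, 66.99 and 652 in HeOuJ air, 563 and 1082 in HeJ ozone and 70.4 and 52.8 in HeJ air. Its log2 fold change in HeJ was 3.48 (SE 1.03, limma adjusted p = 0.916), the largest of the 36 such probe sets in that comparison. Of the HeJ air values, 52.8 was under the floor and 70.4 just above it, so this fold change is against values at the floor.

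The 3′ control probe set for 18S ribosomal RNA read 593 and 531 in HeOuJ ozone, 577 and 759 in HeOuJ air, 425 and 957 in HeJ ozone and 441 and 531 in HeJ air. The groups overlapped, and this control was not set against the protein genes.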
